A study of Mus musculus with 2 samples.

Results

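The 30 genes described here encode the enzymes that build cholesterol and fatty acids, with the proteins that switch those enzymes on and off. They were listed by name, with earlier results of these data known, and they are 30 of the 29417 genes in the deposited count table. They were read in 4 groups: 7 genes of the mevalonate and isoprenoid steps, 11 genes from squalene to cholesterol, 6 genes of fatty acid synthesis and 6 genes of regulators and a sterol carrier. All 30 were found in the table, and the lowest value above 0 of each was 1 read.

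The cells came from the stromal vascular fraction of epididymal white fat, the mix of non-adipocyte cells left after enzyme digestion and centrifugation of the tissue, of wild-type male C57BL/6J mice. Mice were kept on a standard diet (SD in the labels) for 16 weeks or on a high-fat diet (HFD) for 8 or 16 weeks. Suspensions were labelled with hashtag antibodies at 2.5 µg/ml and pooled, and 20000 cells of the pool were loaded on a BD Rhapsody system, which captures single cells on barcoded beads, and amplified by TAS-Seq. The pool gave 1 transcriptome library and 1 hashtag library, so the diets have no library of their own. The cell names carry 9 hashtag populations, A0301 to A0305 and A0307 to A0310. Which hashtag marked which diet or animal is not given in the sources used here, so each population is given by its own value and no diets are compared. With 1 pool there is no replicate and no p-value, and intervals are exact 95% Poisson intervals that cover counting error only. The values were taken as sequencing reads from their depth, and whether they are reads or molecules is not given in the sources used here. If they are reads, several can come from 1 RNA molecule and the intervals are too narrow.

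Of 12028 cells that the authors called as 1 hashtag or as a doublet, 10286 were kept, the called doublets left out, with a median of 36709 reads (range 5169 to 736281) and 2763.5 genes per cell. Every one of the 10286 barcodes was among the 714687 barcodes of the hashtag library. The kept cells already carried a hashtag call, so this match is no separate check. Clusters were named from marker lists, and none of the 30 genes took part in the clustering. Macrophage-like cells (4043 cells, median 57403 reads) and fibroblast-like cells (3128 cells, median 45869.5 reads) were the largest classes. The other named classes were endothelial-like (1028 cells), T and NK cell-like (612), mesothelial-like (296), mural-like (274), B cell-like (134), epithelial-like (68), lymphatic endothelial-like (66) and mature dendritic-like (35). A further 602 cells in 2 clusters stayed unnamed. Levels are given as CPM, the reads of a gene per 1000000 reads of the summed cells. The 10 macrophage markers summed to 18051 CPM in macrophage-like cells but 369 CPM in fibroblast-like ones. The 10 fibroblast markers summed to 1097 and 63048 CPM in these classes. Macrophage markers also summed to 5245 CPM in T and NK cell-like, 2504 CPM in lymphatic endothelial-like and 1968 CPM in B cell-like cells. In the remaining named classes they summed to 250 to 937 CPM. Fibroblast markers summed to 17174 CPM in mesothelial-like, 5329 CPM in mural-like and 2643 CPM in epithelial-like cells. In the other smaller classes they summed to 450 to 1057 CPM. The part of such reads in the levels of the smaller classes was not tested. Mature adipocytes are removed in this preparation by centrifugation, and 9 measured adipocyte markers summed to 53.0 CPM in macrophage-like and 48.3 in fibroblast-like cells.

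Cholesterol synthesis starts from acetyl-CoA, passes through mevalonate to isoprenoid units, joins these to squalene, and closes and trims the sterol rings. Fatty acid synthesis uses the same acetyl-CoA, made in the cytosol by Acly. Both are switched on by the SREBP transcription factors, which the escort protein Scap carries out of the endoplasmic reticulum when sterols are low and which the Insig proteins hold back when sterols are high. In fat tissue, synthesis of fatty acids is best known from adipocytes, and macrophages are better known for taking up and storing lipid from dying adipocytes.

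Promoter windows are shown for 5 genes that recur below: Msmo1, the member that stood higher in macrophage-like cells, Hmgcs1 and Idi1, which varied among the macrophage-like subclusters, and Fasn and Elovl6, which stood higher in fibroblast-like cells. Each window holds 250 bases before and 50 bases from the RefSeq start site (GRCm38.p6), printed in the direction of the gene, with matches to any of 4 motifs in capitals. The motifs were TCACNCCAC (the core of a sterol regulatory element), CCAAT (bound by NF-Y), GGGCGG (the GC box bound by Sp1) and CACGTG (an E-box), searched on both strands. The Msmo1 window is chr8:64733529-64733828 on the minus strand, the Hmgcs1 window chr13:119690101-119690400 on the plus strand, and the Idi1 window chr13:8885356-8885655 on the plus strand. The Fasn window is chr11:120824498-120824797 on the minus strand, and the Elovl6 window chr3:129532136-129532435 on the plus strand.
Msmo1: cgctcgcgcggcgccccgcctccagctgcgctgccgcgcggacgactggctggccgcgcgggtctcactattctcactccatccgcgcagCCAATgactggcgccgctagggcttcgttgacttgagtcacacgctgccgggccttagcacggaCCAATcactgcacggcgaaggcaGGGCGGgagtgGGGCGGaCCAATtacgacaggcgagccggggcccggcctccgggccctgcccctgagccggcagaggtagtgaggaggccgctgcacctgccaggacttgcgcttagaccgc
Hmgcs1: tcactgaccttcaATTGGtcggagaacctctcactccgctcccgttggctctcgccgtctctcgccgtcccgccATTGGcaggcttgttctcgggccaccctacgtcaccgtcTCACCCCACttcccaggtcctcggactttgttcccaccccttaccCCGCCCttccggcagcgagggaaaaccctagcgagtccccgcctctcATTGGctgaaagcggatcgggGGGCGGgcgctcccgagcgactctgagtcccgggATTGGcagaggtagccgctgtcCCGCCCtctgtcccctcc
Idi1: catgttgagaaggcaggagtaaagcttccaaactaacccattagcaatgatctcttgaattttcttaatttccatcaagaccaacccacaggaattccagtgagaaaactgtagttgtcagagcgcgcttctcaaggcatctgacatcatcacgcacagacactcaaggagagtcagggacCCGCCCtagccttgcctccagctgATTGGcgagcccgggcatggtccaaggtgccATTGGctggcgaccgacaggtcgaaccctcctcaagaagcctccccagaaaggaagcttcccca
Fasn: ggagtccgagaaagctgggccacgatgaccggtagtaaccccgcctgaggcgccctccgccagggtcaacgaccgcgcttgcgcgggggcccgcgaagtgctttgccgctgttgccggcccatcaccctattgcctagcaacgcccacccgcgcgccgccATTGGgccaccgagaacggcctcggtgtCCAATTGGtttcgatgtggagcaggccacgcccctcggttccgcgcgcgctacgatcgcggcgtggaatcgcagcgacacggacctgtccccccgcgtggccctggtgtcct
Elovl6: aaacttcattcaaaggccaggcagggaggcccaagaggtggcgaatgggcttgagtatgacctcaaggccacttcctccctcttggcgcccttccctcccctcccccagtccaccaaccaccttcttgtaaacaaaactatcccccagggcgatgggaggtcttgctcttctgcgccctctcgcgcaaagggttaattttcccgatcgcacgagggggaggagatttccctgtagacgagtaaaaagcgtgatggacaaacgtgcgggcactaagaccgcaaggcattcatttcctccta
Msmo1 has 3 CCAAT and 2 GC-box matches, the last CCAAT starting 55 bases before the start site. Hmgcs1 carries the sterol element match TCACCCCAC, which begins 137 bases before the start site, beside 4 CCAAT and 3 GC-box matches. Idi1 has 2 CCAAT matches and 1 GC box. The Fasn window holds CCAATTGG, where 2 CCAAT matches on opposite strands overlap, and a further CCAAT match, and the Elovl6 window holds no match to the 4 motifs.

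RefSeq windows were at hand for 24 of the 30 genes, in 32 windows, and none was printed for Fdps, Fdft1, Sqle, Stard4, Scd1 and Scd2. CCAAT was found in 21 of the 32 windows (65.6%) against 37.4% of all 32851 windows of the same length, and in 20 of the 24 genes. The GC box was found in 24 windows (75.0%) against 35.7% of all windows. An E-box lay in 6 windows (18.8%) against 7.15%, those of Hsd17b7, Sc5d, Dhcr7, Insig1 and Scap, and the sterol element core in 1 window (3.12%, Hmgcs1) against 1.24%. A match describes the letters of the window, and no factor binding was measured.

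The mean over the 30 genes of log2(CPM + 1) was 5.32 in epithelial-like, 4.36 in fibroblast-like, 4.32 in T and NK cell-like, 4.22 in mesothelial-like, 4.13 in macrophage-like, 4.07 in endothelial-like, 4.04 in B cell-like, 3.86 in mural-like, 3.57 in lymphatic endothelial-like and 2.96 in mature dendritic-like cells. The 6 classes from fibroblast-like to B cell-like cells lay within the range of the hashtag populations of fibroblast-like cells alone, which ran from 3.94 to 4.55, and mural-like, lymphatic endothelial-like and mature dendritic-like cells lay below it. The 4 gene groups did not follow 1 order. Mevalonate genes averaged 4.18 in macrophage-like and 3.83 in fibroblast-like cells, and squalene-to-cholesterol genes 4.14 and 3.79. Fatty acid genes averaged 3.34 in macrophage-like and 5.21 in fibroblast-like cells, and regulators 4.85 and 5.16.

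**Figure D1:**
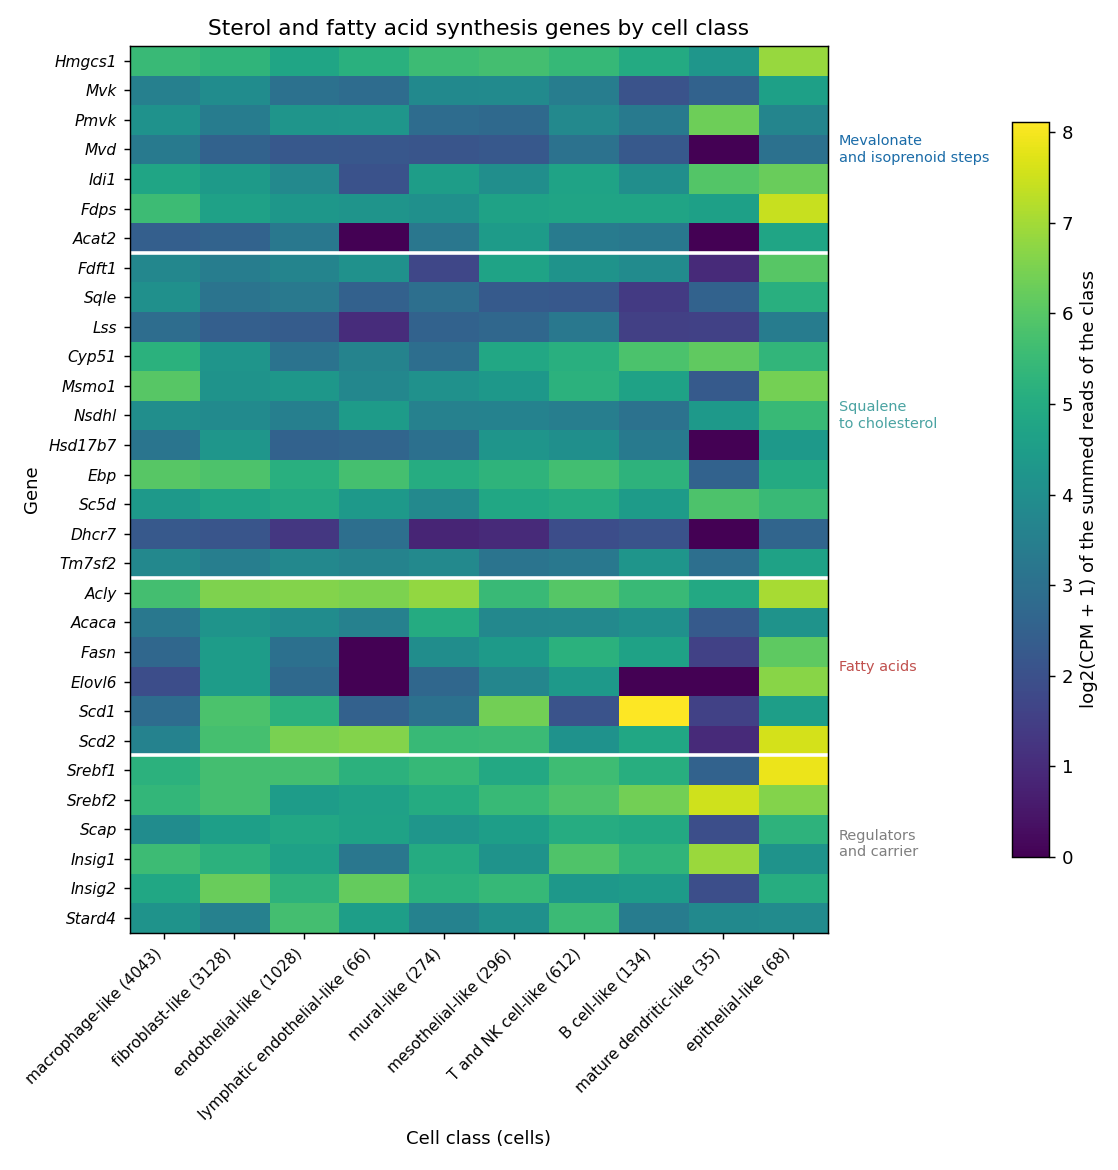
Level of each of the 30 genes (rows, in 4 groups) in the 10 named cell classes (columns, cell number in brackets) as log2(CPM + 1) of the summed reads. The epithelial-like column is bright over most rows (mean 5.32), the Scd1 row is brightest in B cell-like cells (276 CPM), and the fatty acid rows are darker in macrophage-like than in fibroblast-like cells.

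Macrophage-like and fibroblast-like cells differed most in fatty acid genes. Of the 17 members with at least 20 CPM in 1 of these 2 classes, 5 had a level in fibroblast-like cells at least 2-fold above that in macrophage-like cells (ratio of CPM + 1), namely Scd1, Elovl6, Scd2, Fasn and Insig2, and 1, Msmo1, was at least 2-fold higher in macrophage-like cells. The other 11 lay within 2-fold. Over all 7754 genes with 20 CPM in 1 of both classes, 21.4% were 2-fold higher in fibroblast-like cells and 17.3% in macrophage-like cells. Within the fatty acid group 4 of 5 genes at 20 CPM passed in the fibroblast-like direction. None of the 3 mevalonate genes at 20 CPM passed, and 1 of 4 squalene-to-cholesterol genes did, in the macrophage-like direction. The median log2 ratio, macrophage-like over fibroblast-like, was 0.34 for the 7 mevalonate genes, 0.30 for the 11 squalene-to-cholesterol genes, -1.94 for the 6 fatty acid genes and -0.40 for the 6 regulators, against 0.0019 for all genes tested. Scaling by TMM, which assumes that most genes do not differ, moved the median of all genes by 0.11 towards macrophage-like cells and gave 4 members higher there, with Fdps, Sqle and Cyp51 added, against the same number of 5 in fibroblast-like cells, where the share of all genes was 19.5% and 19.8%.

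Each comparison was also read within the 9 hashtag populations. The mevalonate score was higher in macrophage-like cells in 9 of 9, by 0.19 to 0.96. Its genes did not all follow: Fdps and Pmvk were higher there in 9 populations, Idi1 and Mvd in 7, Acat2 in 5, Hmgcs1 in 4 and Mvk in 1. Of these, Pmvk, Mvd, Acat2 and Mvk were below 20 CPM in both classes. Fatty acid scores were higher in fibroblast-like cells in 9 of 9, by a difference, macrophage-like minus fibroblast-like, of -2.14 to -1.02. The squalene-to-cholesterol score was higher in macrophage-like cells in 6 and in fibroblast-like cells in 3, and the regulators in 1 and 8. Counts of the populations say how often a direction recurred inside 1 library, and the populations are not replicates of a condition. Genes given below as without overlap of their population ranges had already passed 2-fold in the same cells. The share of all genes without such overlap, or with 1 direction in all 9 populations, was not counted.

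**Figure D2:**
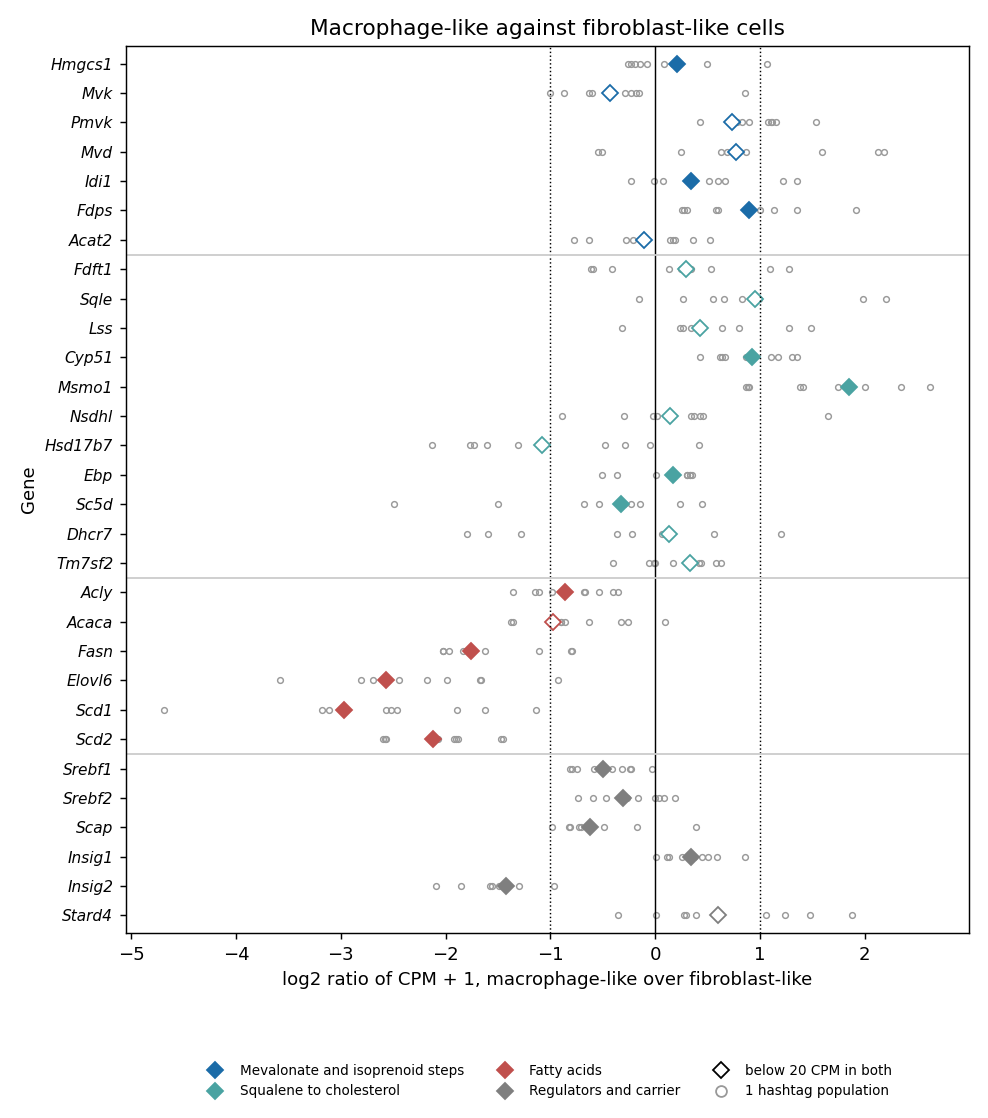
log2 ratio of CPM + 1, macrophage-like over fibroblast-like cells, for each gene: diamonds give all cells (open where both classes are below 20 CPM), small circles the 9 hashtag populations, dotted lines the 2-fold limits. Scd1 lies farthest to the fibroblast-like side (-2.96) and Msmo1 farthest to the macrophage-like side (1.85).

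Among the fatty acid genes, Scd1 (chr19:44394455-44407879, minus strand, GRCm38) had the widest ratio. It encodes a stearoyl-CoA desaturase, which puts the double bond into oleic and palmitoleic acid. Its level was 6.28 CPM (95% interval 6.00 to 6.56) in macrophage-like and 55.8 CPM (54.7 to 56.9) in fibroblast-like cells, 8.89-fold higher in the latter. Over the hashtag populations macrophage-like cells ran from 3.55 CPM in A0310 over a median of 6.51 to 28.0 in A0303, and fibroblast-like cells from 33.9 in A0308 over 55.3 to 116 in A0310. The 2 ranges did not overlap, and A0310 held both the lowest macrophage-like and the highest fibroblast-like value. Scd2 (chr19:44293674-44306864, plus strand), the paralog next to it, stood at 11.2 CPM in macrophage-like (6.82 to 19.4 over populations, median 10.2) and 51.9 CPM in fibroblast-like cells (39.95 to 60.8, median 55.3), 4.64-fold higher in the latter, again without overlap. How the authors counted reads that fit both paralogs is not given in the sources used here.

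Elovl6 (chr3:129532355-129638495, plus strand), which lengthens palmitate to stearate, stood at 2.76 CPM among macrophage-like against 21.3 CPM among fibroblast-like cells, 7.72-fold higher in the latter. Populations ran from 1.32 to 15.4 (median 2.95) in macrophage-like and from 10.6 to 30.2 (median 17.7) in fibroblast-like cells, so that the highest macrophage-like value, in A0302, passed the lowest fibroblast-like one, in A0310. Within each of the 9 populations the fibroblast-like value was the higher one. This call rests close to the 20 CPM minimum: without A0302, or with each cell thinned to 5000 reads, Elovl6 fell under it. Thinning, which gives each cell the same weight, also narrowed the ratio of macrophage-like over fibroblast-like cells from 0.112 to 0.178 for Scd1 and from 0.13 to 0.2 for Elovl6. Fasn (chr11:120805846-120824547, minus strand), the enzyme that builds palmitate, had 21.3 CPM in fibroblast-like cells (15.2 to 24.3, median 20.99) and 5.61 CPM in macrophage-like ones (4.25 to 11.1, median 5.77), a ratio of 3.80 with no overlap. Acaca, which makes the malonyl-CoA that Fasn uses, stood at 8.41 and 17.5 CPM, under the minimum in both. Acly, which makes cytosolic acetyl-CoA, was higher in fibroblast-like cells in 9 of 9 populations but within 2-fold, at 51.1 CPM among macrophage-like against 93.2 CPM among fibroblast-like cells (1.82-fold).

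Markers of other cells moved with some of these values. In macrophage-like cells the summed adipocyte markers were 226 CPM in A0302 and 498 CPM in A0303, the populations with the highest Elovl6 and Scd1 values, and 19.7 to 83.9 CPM in the other 7. The summed fibroblast markers in macrophage-like cells ranged from 689 to 3240 CPM over the populations, highest in A0302. Their part in the macrophage-like Scd1, Scd2 and Elovl6 values was not tested. Of the defining adipocyte genes, Adipoq was at 2.1 CPM among macrophage-like against 0.3 CPM among fibroblast-like cells. In fibroblast-like cells 8 of the 12 genes of a list of dissociation response genes, switched on when tissue is digested, were at least 2-fold higher than in macrophage-like cells (summed 17890 against 7456 CPM). The part of this response in the fibroblast-like values was not tested.

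Msmo1 (chr8:64718139-64733792, minus strand) encodes the oxidase that removes methyl groups from carbon 4 of the sterol ring. It stood at 63.8 CPM (62.9 to 64.7) in macrophage-like and 16.9 CPM (16.3 to 17.6) in fibroblast-like cells, 3.76-fold higher in the former and on the same side in 9 of 9 populations. Macrophage-like cells ran from 30.9 CPM in A0303 over a median of 48.1 to 89.9 in A0310, and fibroblast-like cells from 9.39 in A0309 over 17.8 to 21.3 in A0307, without overlap.

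**Figure D3:**
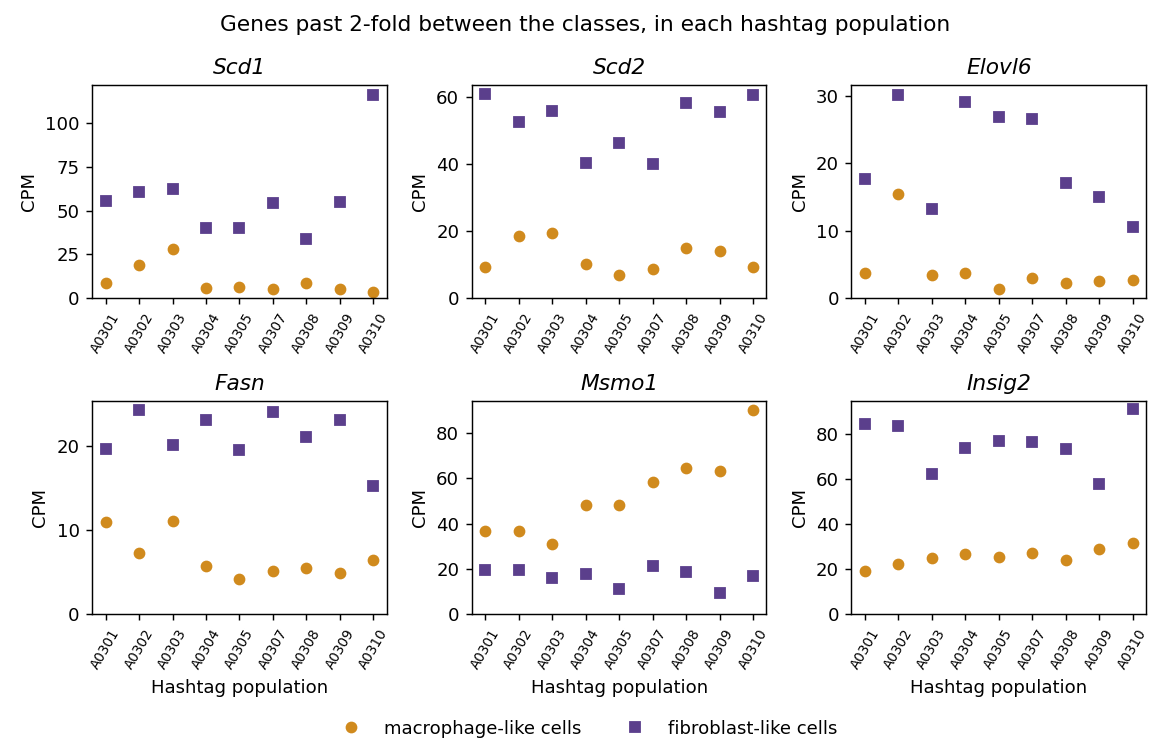
CPM of Scd1, Scd2, Elovl6, Fasn, Msmo1 and Insig2 in macrophage-like (circles) and fibroblast-like cells (squares) of each of the 9 hashtag populations. The 2 classes stay apart in all panels except Elovl6, where macrophage-like cells of A0302 (15.4 CPM) lie above fibroblast-like cells of A0310 (10.6 CPM). These genes were picked as past 2-fold in the same cells, so their separation partly follows from that choice.

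The other steps from squalene to cholesterol showed smaller differences. Cyp51, the lanosterol demethylase, had 34.9 CPM among macrophage-like against 17.9 CPM among fibroblast-like cells (1.95-fold), just under the limit. Sqle, the squalene epoxidase that sets the pace of the late pathway, had 15.7 and 7.63 CPM (2.06-fold by plain CPM), below the minimum in both. By the ratio of CPM + 1 it was also just under 2-fold (log2 ratio 0.95). Ebp, a sterol isomerase, was nearly level at 63.6 and 56.3 CPM. Sc5d, a sterol desaturase, was at 19.9 and 25.2 CPM, Nsdhl, a dehydrogenase that acts beside Msmo1, at 15.1 and 13.6 CPM, Tm7sf2, a sterol reductase, at 12.8 and 9.99 CPM, and Fdft1, the squalene synthase, at 12.4 and 9.90 CPM. Hsd17b7, the ketosterol reductase of the same demethylation complex, went the other way, with 7.97 CPM among macrophage-like against 18.0 CPM among fibroblast-like cells. Lss, which closes the ring, Dhcr7, the last reductase, and Hsd17b7 never reached 20 CPM in a named class. Mvd, an enzyme of the mevalonate steps, did not either. Over the 10 classes Hsd17b7 ranged from 0 to 19.5 CPM, Lss from 1.04 to 9.54, Dhcr7 from 0 to 6.78 and Mvd from 0 to 8.93.

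Of the mevalonate steps, Fdps, which makes farnesyl pyrophosphate, came closest to the limit, at 46.0 CPM among macrophage-like against 24.2 CPM among fibroblast-like cells (1.90-fold, the same direction in 9 of 9 populations). Its populations ran from 28.1 to 72.6 CPM (median 41.6) in macrophage-like and from 15.6 to 38.5 CPM (median 22.6) in fibroblast-like cells, with overlap. Hmgcs1, which makes the HMG-CoA that enters the pathway, was within 1.16-fold, at 44.6 and 38.4 CPM. Idi1, which interconverts the isoprenoid units, stood at 26.0 and 20.3 CPM. Its macrophage-like values ran from 15.7 CPM in A0305 over 25.8 to 55.9 in A0301, and its fibroblast-like values from 8.20 in A0309 over 16.9 to 34.7 in A0301, so that A0301 was highest in both classes. The mevalonate kinase Mvk (10.5 and 14.4 CPM), the phosphomevalonate kinase Pmvk (16.6 and 9.56 CPM) and the cytosolic thiolase Acat2 (4.54 and 4.97 CPM) were below 20 CPM in both. So was Mvd (8.93 and 4.80 CPM). Acat2 lies next to its close copy Acat3, so its reads are uncertain.

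Of the regulators, Insig2 was the 1 gene past the limit. It encodes one of the 2 proteins that hold SREBP in the endoplasmic reticulum, and stood at 27.6 CPM in macrophage-like (19.1 to 31.7 over populations, median 25.2) and 75.4 CPM in fibroblast-like cells (57.9 to 91.0, median 76.6), 2.73-fold higher in the latter and without overlap. Insig1, its paralog and itself a target of SREBP, pointed the other way in 9 of 9 populations but by 1.28-fold, at 46.5 CPM among macrophage-like against 36.3 CPM among fibroblast-like cells. Srebf1, which encodes the SREBP known for fatty acid genes, was at 35.7 and 51.0 CPM in macrophage-like and fibroblast-like cells (1.43-fold, 9 of 9), and Srebf2, which encodes the one known for cholesterol genes, 1.24-fold higher there (40.4 against 50.3 CPM). Scap stood at 14.4 and 22.7 CPM and Stard4, which carries sterols between membranes, at 16.8 and 10.7 CPM.

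Some counts touch neighbouring genes, and whether the authors counted by strand is not given in the sources used here. Exons of Cyp51 overlap Akap9 by 166 bases on the other strand, those of Fdft1 overlap Ctsb by 774, those of Srebf1 overlap Rai1 by 109, and those of Hmgcs1 overlap the antisense gene Gm48342 by 557. On the same strand Fdps overlaps Gm43738 by 1124 exon bases and Tm7sf2 overlaps Vps51 by 532. Levels of these 6 genes are uncertain to that extent.

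Outside the 2 large classes, the epithelial-like cells held the highest level of 18 of the 30 members, among them 4 of the 6 fatty acid genes. Scd1, Acaca, Pmvk and Mvd were among those highest in another class. The share of all genes highest in epithelial-like cells was not counted, so 18 of 30 is not read as particular to the members. These 68 cells, 39 of them from A0303, carry all 5 epithelial markers, with urothelial genes such as Upk3a among their leading genes, and were read more deeply than any other class (median 114974 reads). Srebf1 stood at 235 CPM (225 to 246) against 28.7 to 51.1 CPM in the other classes apart from mature dendritic-like cells. Scd2 reached 190 CPM, Fdps 173 CPM, Hmgcs1 115 CPM, Elovl6 101 CPM and Fasn 67.1 CPM, where the next class stood at 96.5, 46.0, 50.4, 21.3 and 35.4 CPM. Msmo1 at 84.5 CPM, Idi1 at 76.1 CPM, Fdft1 at 62.7 CPM, Nsdhl at 43.5 CPM, Sqle at 33.5 CPM and Mvk at 23.2 CPM were also highest here, as were Acly (132 CPM), Scap (37.1 CPM), Acat2 (26.4 CPM) and Tm7sf2 (24.5 CPM). Insig1, at 16.9 CPM, was not. In the 29 cells left without A0303 the mean over members was 5.24, Srebf1 247 CPM, Scd2 206 CPM, Fdps 150 CPM and Elovl6 106 CPM, while Sqle was 16.1 and Acat2 40.5 CPM. Me1, a source of the NADPH that fatty acid synthesis uses, stood at 267 CPM here, with 50.2 CPM among fibroblast-like cells and 6.02 CPM among macrophage-like ones.

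B cell-like cells had the highest Scd1 level of all classes, with 276 CPM (258 to 295), from 867 reads in 63 of 134 cells, against 82.4 CPM in mesothelial-like and 55.8 CPM in fibroblast-like cells. No single cell held over 8.0% of these reads. After each cell was thinned to 5000 reads, 41.8% of B cell-like cells held a Scd1 read, against 18.6% of mesothelial-like, 12.3% of fibroblast-like, 2.60% of macrophage-like and 0.654% of T and NK cell-like cells, the last being the background share of a class with little Scd1 (median 15524.5 reads unthinned, 14758.5 in B cell-like cells). The 6 populations with at least 10 B cell-like cells gave 152, 200, 230, 249, 286 and 451 CPM, each above the fibroblast-like value of the same population. Scd2 was at 27.7 CPM and Elovl6 at 0 reads (95% interval up to 1.17 CPM) in the same cells, so the other desaturase and the elongase did not share the pattern. Cyp51 was at 54.7 CPM and Srebf2 at 83.4 CPM in B cell-like cells, both above fibroblast-like cells.

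The 35 mature dendritic-like cells had the lowest mean over members and at the same time the highest Srebf2 (182 CPM, 157 to 210), Insig1 (119 CPM, 98.9 to 142), Pmvk (78.4 CPM), Cyp51 (68.7 CPM) and Sc5d (57.1 CPM) of the classes. With so few cells, 1 cell held 16.5% of the Srebf2 reads, 30.1% of Insig1, 29.6% of Pmvk, 23.9% of Cyp51 and 45.8% of Sc5d, and without A0303 Sc5d was at 35.5 CPM. Scd2 was covered by 1 read and Scd1 by 2 reads in this class. In macrophage-like and fibroblast-like cells no cell held over 6.13% of the reads of a member.

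Endothelial-like cells shared the high Scd2 of fibroblast-like cells (89.2 CPM, and 96.5 CPM in lymphatic endothelial-like cells), with Scd1 at 35.8 and 4.69 CPM. They also had the highest Stard4, at 50.1 CPM, followed by T and NK cell-like cells at 45.2 CPM, against 9.55 to 22.4 CPM in the other classes. Acaca was highest in mural-like cells (30.6 CPM), which also had 110 CPM of Acly. Adipocyte markers summed to 286 CPM in endothelial-like and 105 CPM in mural-like cells, and their part in these levels was not tested. Mesothelial-like cells paired high Scd1 (82.4 CPM) with 50.4 CPM of Hmgcs1 and 24.9 CPM of Fdft1. In T and NK cell-like cells Fasn stood at 35.4 CPM, above the fibroblast-like 21.3 CPM, and Scd1 at 3.23 CPM, below the fibroblast-like 55.8 CPM. Lymphatic endothelial-like cells held no read of Fasn or Elovl6 (95% interval up to 1.92 CPM each) and 71.9 CPM of Insig2, close to the fibroblast-like level.

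The level of all members in macrophage-like cells ran over the hashtag populations from 3.89 in A0305 to 4.31 in A0310 (median 4.11), and in fibroblast-like cells from 3.94 in A0309 to 4.55 in A0301 (median 4.31). The fatty acid score of macrophage-like cells ran from 3.05 in A0305 over 3.34 to 4.23 in A0302. The squalene-to-cholesterol score of macrophage-like cells went from 3.66 in A0302 to 4.46 in A0310. A0301, A0302 and A0303 had only 93, 91 and 127 macrophage-like cells, against 498 to 763 in the others, so their values are the least precise. Fibroblast-like cells had a narrower range of fatty acid scores, from 5.03 to 5.41. Among members at 20 CPM or more in fibroblast-like cells Idi1 varied most, 4.23-fold between the lowest and the highest population, and Ebp varied 1.27-fold.

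**Figure D4:**
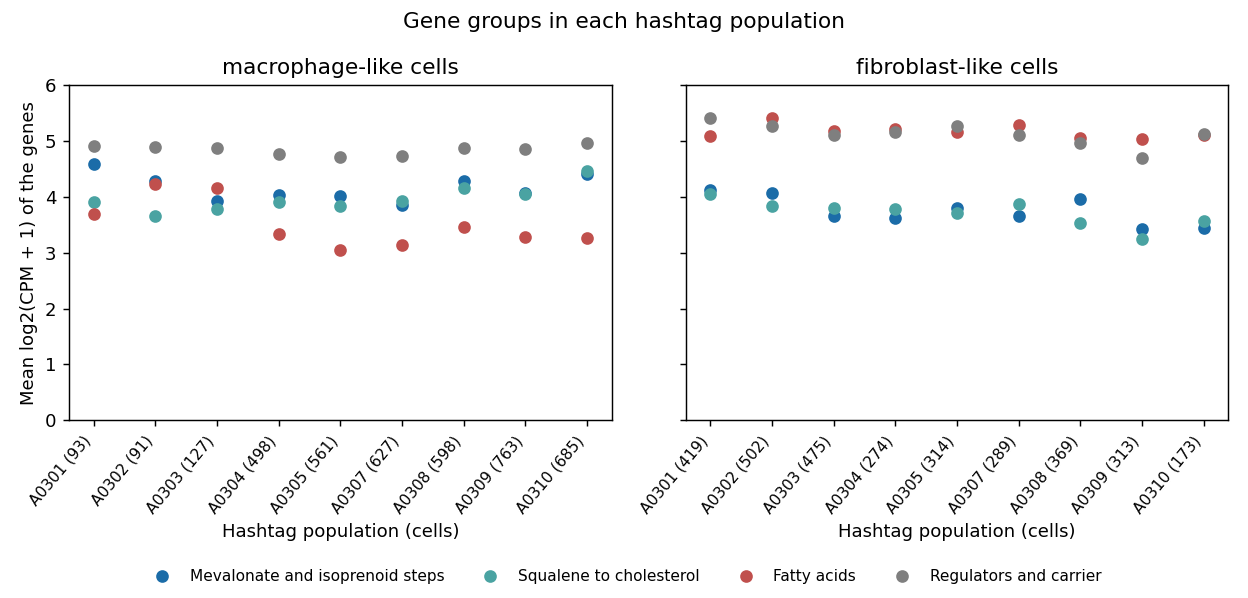
Mean log2(CPM + 1) of the 4 gene groups in macrophage-like (left) and fibroblast-like cells (right) of the 9 hashtag populations, with the number of cells in brackets. In every population the fatty acid point (red) is lower on the left than on the right, from 3.05 to 4.23 against 5.03 to 5.41.

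Macrophage-like cells were divided into 14 and fibroblast-like cells into 12 subclusters, without use of the members. Among macrophage-like subclusters the score of the 30 genes ran from 3.19 in subcluster 10 to 4.59 in subcluster 13, and among fibroblast-like ones from 3.80 in subcluster 9 to 4.62 in subcluster 3. Read depth moved with the score: over 55 sums of macrophage-like subcluster by hashtag population with at least 20 cells, which share 1 library, the correlation with the log2 median reads per cell was 0.73, and over 56 such fibroblast-like sums 0.68. The part of depth in these differences was not tested.

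Macrophage-like subcluster 10 (195 cells, median 22561 reads) was led by Cd209f, Lyve1 and Cbr2, genes known from tissue-resident macrophages, and had lower levels of sterol genes. Of the 13 members with 20 CPM in it or in the other macrophage-like cells, 7 were at least 2-fold lower in it and none was higher. Of all 6825 genes tested, 10.8% were lower and 7.53% higher. Msmo1 stood at 13.6 CPM (10.8 to 16.9) against 64.7 CPM in the rest, Cyp51 at 8.77 against 35.4, and Hmgcs1 at 14.6 against 45.1. Idi1 (9.63 against 26.3), Fdps (19.1 against 46.5), Sc5d (6.71 against 20.2) and Srebf1 (16.7 against 36.1) made up the 7. All but Sc5d were lower in each of the 3 populations with enough cells to compare. The decrease was not shared by all members, since Ebp was at 59.3 against 63.7 CPM, Acly at 49.4 against 51.1 and Pmvk at 31.0 against 16.3. In the same cells all 9 genes of a list for lipid-associated macrophages were 2-fold lower (summed 2783 against 22846 CPM), and 11 of 12 dissociation response genes were 2-fold higher (17218 against 7275 CPM), whose part in the sterol genes was not tested. Those 9 genes were also all 2-fold lower in subclusters 3 (7073 against 23027 CPM) and 6 (5836 against 23402 CPM). In subcluster 6, 3 of 13 members at 20 CPM were 2-fold lower, Hmgcs1, Fdps and Msmo1, against 799 of all 6614 genes. In subcluster 3, 2 of 12 were, Idi1 and Fdps, against 403 of 7106.

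Subcluster 13 (77 cells) had the highest macrophage-like score. Of its 19 members at 20 CPM, 4 were 2-fold higher and none lower, against 11.8% and 1.79% of all 7248 genes. Those were Scd1 (27.4 against 5.77 CPM), Scd2 (43.9 against 10.4), Fasn (21.1 against 5.24) and Stard4 (37.2 against 16.3). The cells also carried all 10 fibroblast markers at 2-fold or more above the rest, were led by Cilp and Efemp1, and had 8 of 9 adipocyte markers 2-fold higher (651 against 38.7 CPM), whose part was not tested. The highest score among subclusters without such markers, a group picked out after its values were seen, was that of subcluster 8 at 4.40 against 4.08 in the rest. It held 288 cells, 249 of them from A0310, read to a median of 127802 reads, with Serpinb9b, Gclm and Prdx1 leading. There 2 of 14 members at 20 CPM passed 2-fold, Sqle (41.9 against 12.1 CPM) and Fdps (86.8 against 40.4 CPM), against 1.99% of all 6395 genes higher and 5.82% lower. By any margin, 22 of 30 members lay above the rest, and the same share over all genes was not counted. The median log2 ratio to the rest was 0.22 for the 30 members and -0.085 for all genes tested. Msmo1 stood at 97.2 against 59.2 CPM and Idi1 at 41.9 against 23.8 CPM. All 4 genes were also higher than in the other macrophage-like cells of A0310, the 1 population with enough cells in the subcluster to compare. Subcluster 9 (239 cells, median 9932 reads, the shallowest) had 6 of 13 members at 20 CPM 2-fold lower, Hmgcs1, Idi1, Cyp51, Sc5d, Insig1 and Srebf1. None was higher there, against 12.7% lower and 0.827% higher of all 6408 genes. Its Hmgcs1 reads came from 14 cells (13.8 against 44.9 CPM) and its Idi1 reads from 3 cells.

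Fibroblast-like subclusters differed less. Subcluster 3 (405 cells, led by Cxcl10 and Ifit1, genes induced by interferon) had the highest score. None of its 19 members at 20 CPM passed 2-fold in either direction, against 2.30% of all 6864 genes higher and 3.95% lower. By any margin, 27 of 30 members lay above the rest, and the same share over all genes was not counted. The median log2 ratio to the rest was 0.30 for the 30 members and -0.026 for all genes tested. Srebf2 stood at 68.4 CPM there against 47.1 CPM in the rest, higher in 7 of 7 populations compared. Subcluster 9 (125 cells, led by Cyp4b1 and Vtn) had the lowest score. There 3 of 16 members at 20 CPM were 2-fold lower, Idi1 (5.37 against 20.8 CPM), Fdps (6.71 against 24.7) and Fasn (8.05 against 21.7). None was higher there, against 5.83% lower and 2.80% higher of all 7084 genes. Its Idi1 reads came from 3 cells, and in the 1 population large enough to compare, Fdps was higher and not lower.

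**Figure D5:**
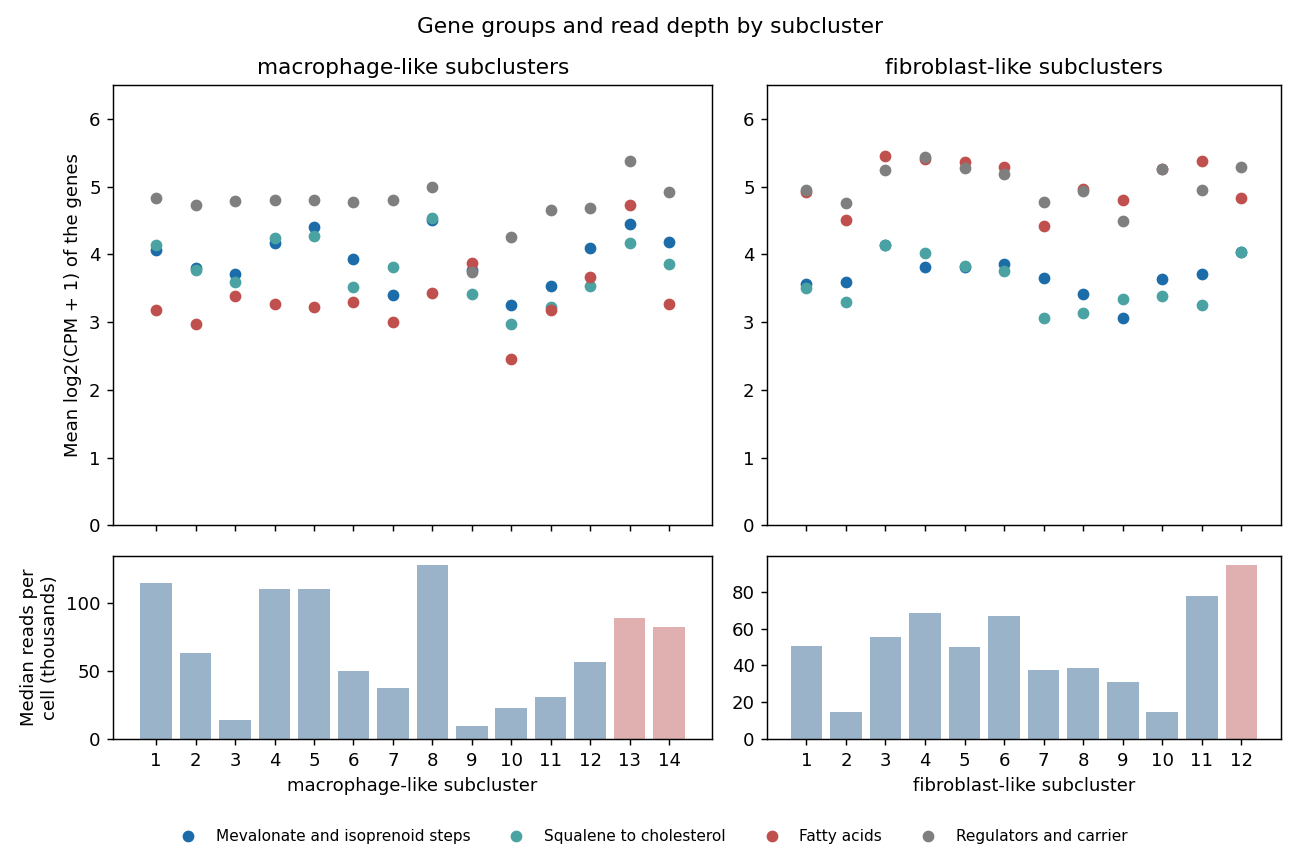
Top, mean log2(CPM + 1) of the 4 gene groups in the 14 macrophage-like (left) and 12 fibroblast-like subclusters (right). Bottom, median reads per cell, in pink where a subcluster carries the fibroblast, macrophage or endothelial markers of another class. Among macrophage-like subclusters the mevalonate, squalene-to-cholesterol and fatty acid groups lie lowest in subcluster 10 (3.25, 2.98 and 2.46), and subclusters 9 and 10 are also among those with few reads (9932 and 22561).

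Members moved together only in part. Over the same sums, the median correlation of log2(CPM + 1) between pairs of members with a mean of 20 CPM was 0.18 among 11 genes in macrophage-like and 0.14 among 15 genes in fibroblast-like cells, which in sparse counts is weak. The closest macrophage-like pairs were sterol enzymes, Cyp51 with Idi1 (0.60), Idi1 with Hmgcs1 (0.58) and Cyp51 with Hmgcs1 (0.55). The mevalonate and squalene-to-cholesterol scores correlated at 0.79 in macrophage-like and 0.44 in fibroblast-like cells, and the squalene-to-cholesterol and fatty acid scores at 0.48 and 0.73. Depth is shared by these points. Outside the list, the genes closest to the score of the members in macrophage-like cells were Actr2 (0.73), Capza1 (0.72), Tpi1 (0.70), Ostm1 (0.70), Tor3a (0.69), Rnaseh2b (0.68), Ppp2ca (0.68), Vcp (0.68), Tpm4 (0.67) and Sdc3 (0.67), of 6132 genes ranked. In fibroblast-like cells they were Rps6ka3 (0.80), Adam10 (0.78), Vcan (0.76), Septin2 (0.75), Lamc1 (0.74), Jak1 (0.74), Arcn1 (0.74), Eif4g2 (0.74), Clcn5 (0.73) and Tshz1 (0.73), of 6459.

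Genes around the pathway were counted by the same rule, under which 17.3% of all genes were higher in macrophage-like and 21.4% in fibroblast-like cells. Of 17 genes of sterol storage, sensing and transport, 16 were at 20 CPM, 8 were 2-fold higher in macrophage-like and 1 in fibroblast-like cells, and the list's median log2 ratio was 0.76. Lipa, the lysosomal lipase that frees cholesterol from its esters, stood at 1825 CPM among macrophage-like against 91.9 CPM among fibroblast-like cells, and the lysosomal sterol carrier Npc2 at 1296 and 560 CPM. Soat1, which esterifies cholesterol for storage, had 288 and 49.5 CPM, and Nceh1, which hydrolyses such esters, 327 and 13.7 CPM. Of 10 partners of SREBP processing, 9 were at 20 CPM, none was 2-fold higher in macrophage-like and 3 in fibroblast-like cells. They include Mbtps1, the protease that makes the first SREBP cleavage (27.7 and 87.4 CPM), and Rnf145, a ubiquitin ligase (19.0 and 56.5 CPM), while Faf2 (37.8 and 53.8 CPM) stayed within 2-fold.

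Against the same shares of 17.3% and 21.4%, the other lists gave small counts from which no difference is read. The isoprenoid branch, with 9 of 13 genes at 20 CPM, had 1 gene higher in macrophage-like cells, Nus1 (192 and 92.9 CPM), which acts in dolichol synthesis, and 2 in fibroblast-like cells, among them Ggps1 (18.5 and 53.8 CPM), which makes geranylgeranyl pyrophosphate. The prenyltransferase subunits Fnta (48.2 and 58.1 CPM) and Pggt1b (37.3 and 39.99 CPM) were close. Among 12 genes of precursor and NADPH supply, 7 were at 20 CPM, with 3 higher in macrophage-like cells and 2 in fibroblast-like cells. Pgd (214 and 54.9 CPM) and G6pdx (97.2 and 45.7 CPM), both of the pentose phosphate pathway, and Idh1 (181 and 88.4 CPM) were the 3, and Acat1 (39.1 and 111 CPM) was 1 of the 2, beside Me1. Elongation and desaturation genes other than the members, 12 of 19 at 20 CPM, gave 1 and 4, with Degs1 (215 and 115 CPM), Hsd17b12 (192 and 85.0 CPM), Tecr (103 and 112 CPM) and Elovl1 (101 and 79.5 CPM) the most read.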

How the data were processed

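The authors deposited whole-number counts, taken here as reads, per gene and cell for the transcriptome library and tag counts per barcode for the hashtag library. Reads were trimmed with cutadapt 2.10 and aligned with Bowtie2 2.4.2 to GRCm38, with R 3.6.3 also named, per the submitters' processing notes, which give no order or role for them. The 12 columns without a hashtag call were not used. A filter of 200 detected genes and a ceiling of 25% mitochondrial reads removed 1253 cells, and doublets were removed by hashtag (254), by Scrublet (236) and by both (1). Counts were scaled to 10000 per cell, and 2000 variable genes without the members, 30 principal components and 15 neighbours gave Leiden clusters at resolution 1 (scanpy 1.11.5, Python 3.11.15). Macrophage-like and fibroblast-like cells were clustered again in the same way. A cluster was named where at least 55% of a class's markers, and at least 3, were detected (in 10% of its cells, at 20 CPM and 20% of the highest cluster's level), unless a second class reached 60% within 25 points. These limits were set after the clusters were seen. Levels are CPM of summed reads. A gene was called where the ratio of CPM + 1 was at least 2 and 1 class had 20 CPM, and the same rule over all genes gave the background.

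Named were all members, with levels for those at 20 CPM in a named class and ranges for the others; subclusters with at least 5 called members or the highest or lowest score; the 10 genes closest to the score; and the 4 highest genes of each list, of which 1 is not reported here. The members, lists and markers were chosen with earlier results of these data known. Alternatives covered per-cell means, thinning to 5000 reads, TMM (edgeR 4.0.16), other totals, resolutions, doublet and mitochondrial filters, a pseudocount of 10, minimums of 0 and 50 CPM, single hashtag populations left out, top tags, and subclusters with other classes' markers left out. Leaving out shallow subclusters was added after the data were seen. The steps were checked on simulated data. Promoters came from RefSeq (GRCm38.p6) and gene positions from GENCODE M21.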

Additional observations from a re-analysis of the deposited data

How the results depend on the processing

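No paired analysis was possible because the study has 1 pool and no group with replicate numbers. No called result reversed. The count of members higher in macrophage-like cells, 1 in the reported analysis, was 4 with TMM scaling (Fdps 2.05-fold, Sqle 2.23, Cyp51 2.11) and 1 to 2 when single hashtag populations were left out, with Fdps added without A0301. The count higher in fibroblast-like cells, 5, was 3 at a minimum of 50 CPM and 4 to 5 without single populations. Elovl6 lost its call, by falling under 20 CPM, without A0302, with per-cell means and with thinning, and Hsd17b7 gained one without mitochondrial and ribosomal genes. The difference of the mean over members, macrophage-like minus fibroblast-like (-0.23), was -0.126 with TMM, -0.208 without mitochondrial and ribosomal genes, -0.216 at resolution 0.5, -0.152 with a pseudocount of 10, -0.243 without subclusters that carry another class's markers, and -0.308 to -0.197 without single populations. With a pseudocount of 10 the spread of the mean fell from 2.35 to 1.27 over classes, from 1.40 to 0.783 over macrophage-like subclusters, from 0.816 to 0.516 over fibroblast-like subclusters, from 0.422 to 0.286 over populations in macrophage-like cells and from 0.613 to 0.387 in fibroblast-like cells, since it shrinks low values. Without subclusters that carry another class's markers the macrophage-like spread was 1.21, and the fibroblast-like one was 0.684 at resolution 0.5 of the second clustering. Taking the population from the top tag gave 1.15 in fibroblast-like cells, where 1029 of 3128 cells had a top tag, and the cause was not tested. Of 630 values of single members over 21 alternatives, 448 moved by less than their counting error and 182 by more, none with a reversed call. Among the 21 was a filling of missing low values, which changed nothing because the lowest value above 0 of each member was 1. Its values are counted in the 448. Values under 20 CPM in classes of under 100 cells rest on few reads.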

Other observations

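In macrophage-like cells Msmo1 stood at 36.8, 36.6, 30.9, 48.0, 48.1, 58.2, 64.5, 63.1 and 89.9 CPM in A0301, A0302, A0303, A0304, A0305, A0307, A0308, A0309 and A0310. The mean log2(CPM + 1) of the 6 fatty acid genes in the same order was 3.69, 4.23, 4.16, 3.34, 3.05, 3.14, 3.45, 3.28 and 3.27. The 10 fibroblast markers in these cells summed, in that order, to 2318, 3240, 1245, 1558, 689, 1006, 1188, 926 and 1039 CPM, and the 9 adipocyte markers to 49.3, 226, 498, 39.9, 43.2, 83.9, 51.7, 32.8 and 19.7 CPM, and their part in the fatty acid values was not tested. Macrophage-like cells made up 11.5%, 9.5%, 12.2%, 46.3%, 47.0%, 52.5%, 42.9%, 53.4% and 57.5% of the cells of these populations. No source used here gives their diets.

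The 2 unnamed clusters also held members at high levels. Cluster 12 (364 cells), led by Flt3, Clec9a and Cd209a, genes known from dendritic cells, had 111 CPM of Srebf2 and 55.1 CPM of Cyp51. Cluster 17 (238 cells), with Klrg1, Foxp3 and Il1rl1 among its leading genes, had 94.98 CPM of Cyp51, 88.9 CPM of Srebf2 and 58.8 CPM of Sc5d, against 33.6, 57.1 and 30.5 CPM in T and NK cell-like cells.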
